A study of Mus musculus with 24 samples.

Results

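The bile acid axis of the ileum was followed through 9 genes: Fgf15, the carriers Fabp6, Slc10a2, Slc51a and Slc51b, and the regulators Nr1h4, Nr0b2, Nr5a2 and Gpbar1. They were chosen by a list of genes around the bile acid receptor FXR and of ileal bile acid transport, and their symbols were matched to the Ensembl identifiers of both count tables. All 9 were present among the 45706 identifiers. Because the higher Fgf15 of induced colonic organoids was known when the list was drawn up, its change between on and off is given as a description without a test, and counts of members that passed a test between on and off are over the other 8.

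RNA was sequenced from 24 libraries of epithelial organoids, 12 from the colon (COL) and 12 from the small intestine (SI) of C57BL/6N mice. The 3 genotypes all carried Villin::CreERT2, a tamoxifen-inducible recombinase driven in intestinal epithelium. BRAF organoids (BraffloxV600E/+;Villin::CreERT2) switched from wild-type to mutant BRAFV600E on induction. In p53 organoids (Trp53LSL-R172H/+;Villin::CreERT2) a stop cassette in front of the p53R172H allele was removed, and BRAFp53 organoids carried both alleles. The on state was set with 4-hydroxytamoxifen (4-HT) for 24 h at 3.5 µM for COL and 0.5 µM for SI, and the off state with ethanol. No group had 4-HT without a mutant allele. Within an arm, an effect of 4-HT or of the recombinase cannot be told apart from that of the allele. RNA was isolated at day 3 (COL) or day 8 (SI). Each of the 12 groups had 2 libraries, and each genotype was 1 donor culture per tissue, so a difference between genotypes cannot be told apart from a difference between donors. The methods name 3 donor mice, 1 per genotype. Ddx3y was at 45.8 to 64.8 CPM in every COL library but at most 0.065 CPM in SI p53 and SI BRAFp53, which goes against a donor shared by the COL and SI cultures of these genotypes. The p-values measure the spread between libraries of a culture, not between animals. Tissue was tied to the 4-HT dose, the day of isolation and the medium, which held Wnt3a and CHIR99021 for COL. By the values of Ddx3y, which is Y-linked, tissue was also tied to the donor and its sex in p53 and BRAFp53.

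Bile acids are taken back up in the terminal ileum. The apical transporter encoded by Slc10a2 (ASBT) brings them into the enterocyte, the cytosolic binding protein encoded by Fabp6 carries them, and the OSTα/OSTβ pair encoded by Slc51a and Slc51b exports them across the basolateral membrane. Inside the cell they activate FXR, the nuclear receptor encoded by Nr1h4, which switches on Fgf15, Fabp6, Slc51a, Slc51b and the corepressor gene Nr0b2 (SHP). FGF15 is the hormone through which the ileum represses bile acid synthesis in the liver, acting there through FGFR4 and β-Klotho. Nr5a2 encodes the nuclear receptor LRH-1, and Gpbar1 the membrane bile acid receptor TGR5.

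Total counts per library were 51174821 to 78175143 in COL and 44350747 to 68214835 in SI. Levels below are counts per 1000000 (CPM), in which 3 counts stand for 0.0368 to 0.0878, with library sizes scaled together over the 24 libraries. The induced allele checked the p53 labels: Trp53 was at 199 and 220 CPM in COL p53 off and at 406 and 412 CPM in on organoids, and at 157 and 161 against 268 and 277 CPM in SI p53. In BRAFp53 it was at 140 and 162 against 248 and 332 CPM in COL, and at 150 and 153 against 194 and 254 CPM in SI. Counts per gene cannot tell mutant from wild-type Braf. SI BRAF on replicate 1 stood apart: it held Xist at 17.1 CPM, against 0.234 to 0.471 CPM in the other 3 libraries of that culture and 115 to 166 CPM in the other SI cultures. Its Ddx3y, a Y-linked gene, was within the 32.8 to 40.3 CPM of that culture, while the other SI cultures had at most 0.065 CPM. Why the library held both was not tested. Called members, lists and named genes of SI BRAF organoids are therefore also given without it, while levels and figures include it. The SI organoids came from proximal small intestine according to the study's methods, whereas Fgf15, Fabp6 and Slc10a2 are genes of the ileum. Gata4, a transcription factor of the proximal small intestine, averaged 81.6 to 117 CPM in the SI groups. Osr2, listed here with the distal small intestine, averaged 97.1 CPM in SI BRAF off, 29.1 CPM in SI p53 off and 0.0195 CPM in SI BRAFp53 off organoids. The 8 distal genes that include Osr2 differed far less in sum. They summed to 538 and 639 CPM in SI BRAF off, 323 and 430 CPM in SI p53 off and 323 and 356 CPM in SI BRAFp53 off libraries. Among COL cultures, BRAF organoids had Gata4 at 42.0 and 49.4 CPM in off and at 34 and 32.1 CPM in on libraries, against at most 2.67 CPM in COL p53 and COL BRAFp53. The summed level of 12 stromal and immune genes was 0.279 to 3.74 CPM in every library.

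**Figure D1:**
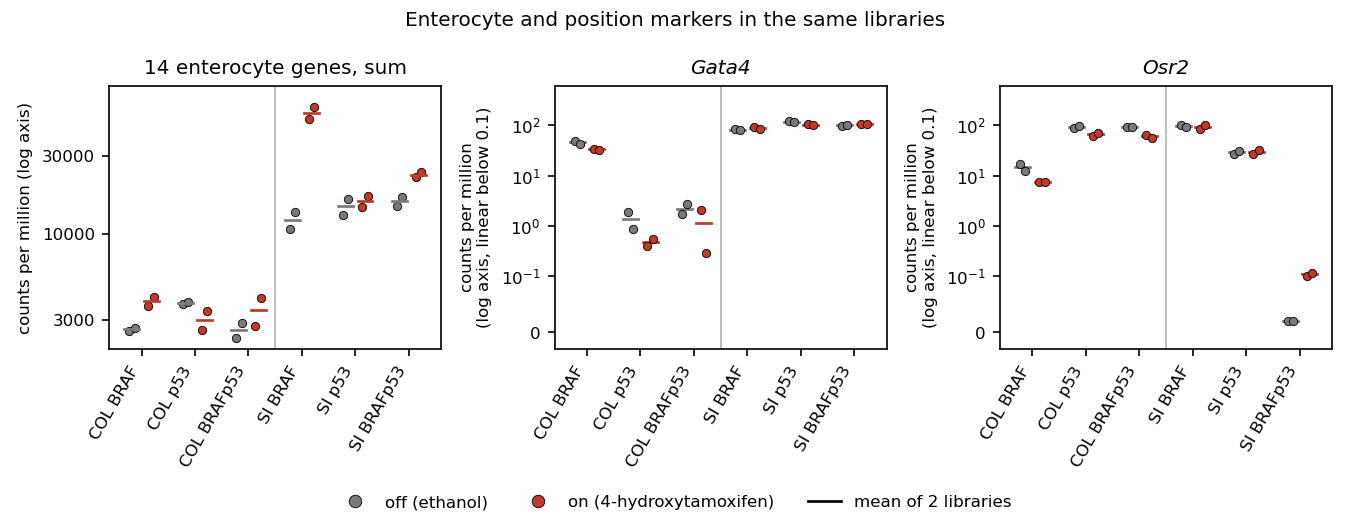
Levels in CPM of the summed 14 enterocyte genes, Gata4 and Osr2 in the 6 cultures, with off libraries in grey and on libraries in red. In SI, Osr2 is highest in the BRAF culture, and the enterocyte sum of its on libraries (50100 and 59300 CPM) lies above every other library.

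Sequences upstream of the 4 bile acid carrier genes are shown, each of which rose in SI BRAF organoids. Nr0b2 also passed there, and its window is not printed. Fgf15, likewise higher in on libraries there, had no window. They were read from RefSeq windows of GRCm38.p6 that hold 250 bases before and 50 bases after each annotated start; 8 of the 9 members had a window. The sequences run 5′ to 3′ on the gene's own strand, which is the minus strand for all 4. Those of Fabp6 and Slc51a end just before the RefSeq start, from which distances are counted. GENCODE places the starts of Slc10a2 and Slc51b further upstream, so only the first 186 and 76 bases of their windows are printed, the latter to the end of a match. Capitals mark matches to 3 motifs: the FXR inverted repeat (AGGTCA and its reverse complement with 1 base between them), the NR5A2 site CAAGGNCA and the AP-1 site TGANTCA, each searched on both strands, and no marked matches overlap.
Slc10a2, chr8:5105352-5105537: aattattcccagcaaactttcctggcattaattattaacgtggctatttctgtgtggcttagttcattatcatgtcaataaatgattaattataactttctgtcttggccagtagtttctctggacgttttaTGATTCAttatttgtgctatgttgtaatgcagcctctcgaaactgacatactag
Slc51b, chr9:65422948-65423023: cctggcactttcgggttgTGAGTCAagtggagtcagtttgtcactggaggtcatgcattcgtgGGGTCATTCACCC
Fabp6, chr11:43601563-43601812: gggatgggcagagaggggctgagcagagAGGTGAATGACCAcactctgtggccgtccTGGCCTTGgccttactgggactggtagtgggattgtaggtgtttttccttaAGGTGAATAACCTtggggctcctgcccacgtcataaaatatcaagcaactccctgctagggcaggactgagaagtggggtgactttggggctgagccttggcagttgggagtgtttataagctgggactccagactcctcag
Slc51a, chr16:32487880-32488129: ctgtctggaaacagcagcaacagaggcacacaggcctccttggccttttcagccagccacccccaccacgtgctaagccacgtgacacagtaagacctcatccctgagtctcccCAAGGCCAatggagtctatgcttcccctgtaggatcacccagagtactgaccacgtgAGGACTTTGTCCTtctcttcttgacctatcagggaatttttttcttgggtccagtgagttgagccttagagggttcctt

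Fabp6 had 2 matches to the FXR repeat with at most 2 mismatches, starting 222 and 142 bases before its start. Such a match was present in 1.14% of 32851 windows. With up to 3 mismatches, a limit added after the data were seen and met by 11.4% of windows, Slc51b (187 bases before the start) and Slc51a (79 bases) each had 1 match. The NR5A2 site, present in 6.71% of windows, lay in the windows of Fabp6 (193 bases), Slc51a (136 bases) and Nr0b2 (201 bases). The AP-1 site, present in 7.81% of windows, lay in those of Slc10a2 (118 bases) and Slc51b (232 bases). The HNF4 site CAAAGTCCA, present in 0.475% of windows, was in none of the members' windows. These letters describe the windows and say nothing of binding in the organoids.

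Fgf15 (chr7:144896531-144900953, plus strand, GRCm38) was higher in on than in off organoids of every colonic genotype. In COL BRAF it was at 3.6 and 2.57 CPM in off and at 29.2 and 24.9 CPM in on libraries, 8.77-fold between the means. In COL p53 it was at 8.99 and 12 CPM in off and at 39.7 and 32.9 CPM in on libraries, 3.46-fold. In COL BRAFp53 it was at 5.76 and 6.08 CPM in off and at 56.9 and 36.3 CPM in on libraries, 7.87-fold. The on and off libraries did not overlap in any of the 3 genotypes, and each on library of the colon was above each off library of the colon. The fitted log2 fold changes were 3.13 (SE 0.26) in BRAF, 1.77 (SE 0.24) in p53 and 2.98 (SE 0.25) in BRAFp53, and stayed between 1.57 and 3.38 when any 1 library was left out.

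In the small intestine Fgf15 was seen mainly in the BRAF culture. SI BRAF off libraries were at 0.625 and 0.698 CPM (27 and 40 counts) and on libraries at 5.92 and 7.81 CPM (266 and 267 counts), 10.4-fold between the means. Its fitted log2 fold change there was 3.32 (SE 0.96), and 3.52 (SE 1.19) without SI BRAF on replicate 1. The 8 libraries of SI p53 and SI BRAFp53 held 0 to 11 counts each, at most 0.215 CPM, with on and off overlapping. In the order of group means, COL BRAFp53 on (46.6 CPM) and COL p53 on (36.3 CPM) overlapped, followed by COL BRAF on (27.1 CPM) and COL p53 off (10.5 CPM). SI BRAF on (6.87 CPM) overlapped with COL BRAFp53 off (5.92 CPM), and COL BRAF off (3.09 CPM) and SI BRAF off (0.662 CPM) came next. The 4 SI groups of p53 and BRAFp53 were lowest and overlapped with each other.

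**Figure D2:**
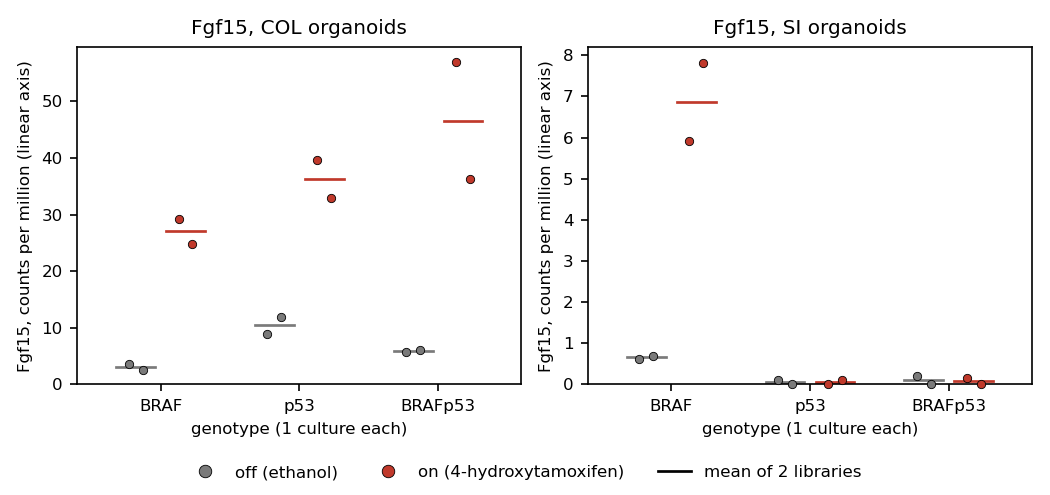
Fgf15 in CPM in each library, by genotype, for COL and SI on separate linear axes; grey points are off and red points on libraries, and lines mark the mean of the 2 libraries. On libraries lie above off libraries in all 3 colonic genotypes (24.9 to 56.9 against 2.57 to 12 CPM) and in SI BRAF (5.92 and 7.81 against 0.625 and 0.698 CPM).

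Part of the Fgf15 exons lies opposite another gene. Of its 3058 exon bases, 761 (24.9%) overlap exons of Gm26793 on the other strand. Whether the counting used strand is not given in the sources used here, so reads of the overlap cannot be assigned with certainty. Gm26793 held 39 to 48 counts in COL BRAF off and 68 to 107 in on libraries, against 165 and 257 (off) and 1307 and 1939 (on) for Fgf15. Per 100 Fgf15 counts, Gm26793 had 18.7 and 23.6 counts in COL BRAF off and 5.52 and 5.20 in on libraries, and 12.1 and 16.8 in COL BRAFp53 off and 6.10 and 4.21 in on libraries. In COL p53 the same ratio was 4.11 and 3.91 in off and 4.92 and 5.59 in on libraries. It was 60 in an SI BRAF off library (24 counts against 40), beside 11.1 in the other.

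The named genes whose log2 CPM ran most nearly with Fgf15 over the 12 COL libraries were Cdc42ep5 (Pearson r 0.975), Trex2 (0.974), Krt7 (0.973), S100a16 (0.972) and S100a6 (0.97), of 10820 genes compared. Over the 12 SI libraries they were Zdhhc20 (0.96), Capn1 (0.949), Cgn (0.936), Slc25a22 (0.935) and Nudt22 (0.931), of 10178. In SI the 2 BRAF on libraries stand apart in Fgf15, so the likeness there rests mainly on them. Libraries of 1 culture share their donor, and no test was made on these values.

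Without induction, the levels of 3 members did not overlap between the tissues. How many of all genes do not overlap was not counted. Fgf15 was at 2.57 to 12 CPM in COL off and at 0 to 0.698 CPM in SI off libraries. Slc10a2 was at 8.45 to 73.6 CPM in COL off and at 0 to 1.94 CPM in SI off libraries. Nr0b2 went the other way, with 0 to 0.221 CPM in COL off and 0.314 to 10 CPM in SI off libraries. These levels are given as a description: where the off libraries of each culture were summed and 3 COL were compared with 3 SI cultures, Fgf15 and Slc10a2 passed the filter on low counts only through COL and Nr0b2 only through SI, so a test of them is not informative. None of the 3 was tested where at least 10 counts were required in every culture. The other 6 members did not pass edgeR in that comparison, where 29.6% of all genes did (17% higher and 12.6% lower in COL).

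Within the colon, BRAF off organoids had the lowest off levels of Fgf15, of Slc10a2 (8.45 and 12.9 CPM, against 27.1 to 73.6 CPM in the other COL off libraries), of Slc51a (15.6 and 19.8 against 42.3 to 76.4 CPM) and of Slc51b (3.77 and 4.22 against 7.15 to 11.3 CPM). This is the colonic culture with Gata4. As 1 culture it allows no test.

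All 4 carriers were higher in on than in off libraries of SI BRAF organoids. This group was 4 of the 5 members that rose in SI BRAF, where 1 fell, 2 did not pass and 31.7% of all genes tested were called (17.5% up, 14.2% down). Fabp6 (chr11:43596049-43601540) was at 2.22 and 2.43 CPM in off and at 41.8 and 77.4 CPM in on libraries. It rose by a log2 fold change of 4.63 (SE 0.30, edgeR adjusted p = 2.42e-07). Slc10a2 (chr8:5083219-5105351) was at 1.94 and 0.384 CPM in off and at 36.6 and 70.6 CPM in on libraries, a rise of 5.54 on the log2 scale (SE 0.62, edgeR adjusted p = 2.06e-05). That rise ranged from 4.74 to 7.05 when any 1 library was left out. The uptake transporter and the binding protein thus both had on libraries far above their off libraries.

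The exporter pair started from higher levels. Slc51a (chr16:32474504-32487879) was at 64.1 and 51.2 CPM in SI BRAF off and at 239 and 279 CPM in on libraries, and rose by 2.13 on the log2 scale (SE 0.16, edgeR adjusted p = 5.95e-07). Slc51b (chr9:65412714-65422955) was at 10 and 8.20 CPM in off and at 39.4 and 48.8 CPM in on libraries, and rose by 2.23 (SE 0.18, edgeR adjusted p = 1.18e-06). The genes of both subunits, which work only as a pair, thus changed by a similar amount. Per kilobase of exon, the SI BRAF on levels were 87.2 and 162 CPM for Fabp6, 74.7 and 87.4 for Slc51a, 55.5 and 68.9 for Slc51b, 8.82 and 17.0 for Slc10a2 and 1.94 and 2.55 for Fgf15. Without SI BRAF on replicate 1 the log2 fold changes were 5.01 for Fabp6, 5.94 for Slc10a2, 2.24 for Slc51a and 2.39 for Slc51b, with edgeR adjusted p between 3.3e-08 and 1.04e-05. Of the 3198 exon bases of Slc51a, 567 (17.7%) lie opposite exons of Pcyt1a, which was at 52.2 to 55.6 CPM in SI BRAF off and at 171 to 202 CPM in on libraries. Of the 709 of Slc51b, 91 (12.8%) lie opposite Rasl12, which did not exceed 2.40 CPM in any library.

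All 14 enterocyte genes also rose in SI BRAF, with a median log2 fold change of 1.95 (2.10 without SI BRAF on replicate 1, where 14 rose), and their summed level was 10800 and 13600 CPM in off against 50100 and 59300 CPM in on libraries. In bulk RNA, more cells of a type and more RNA per cell cannot be told apart, and the part of enterocyte content in the rise of the carriers was not tested. The log2 fold changes of Fabp6 and Slc10a2 exceeded that of each of the 14 enterocyte genes, whose largest was 3.26 (Anpep, an aminopeptidase of the brush border), while those of Slc51a and Slc51b lay within their range.

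**Figure D3:**
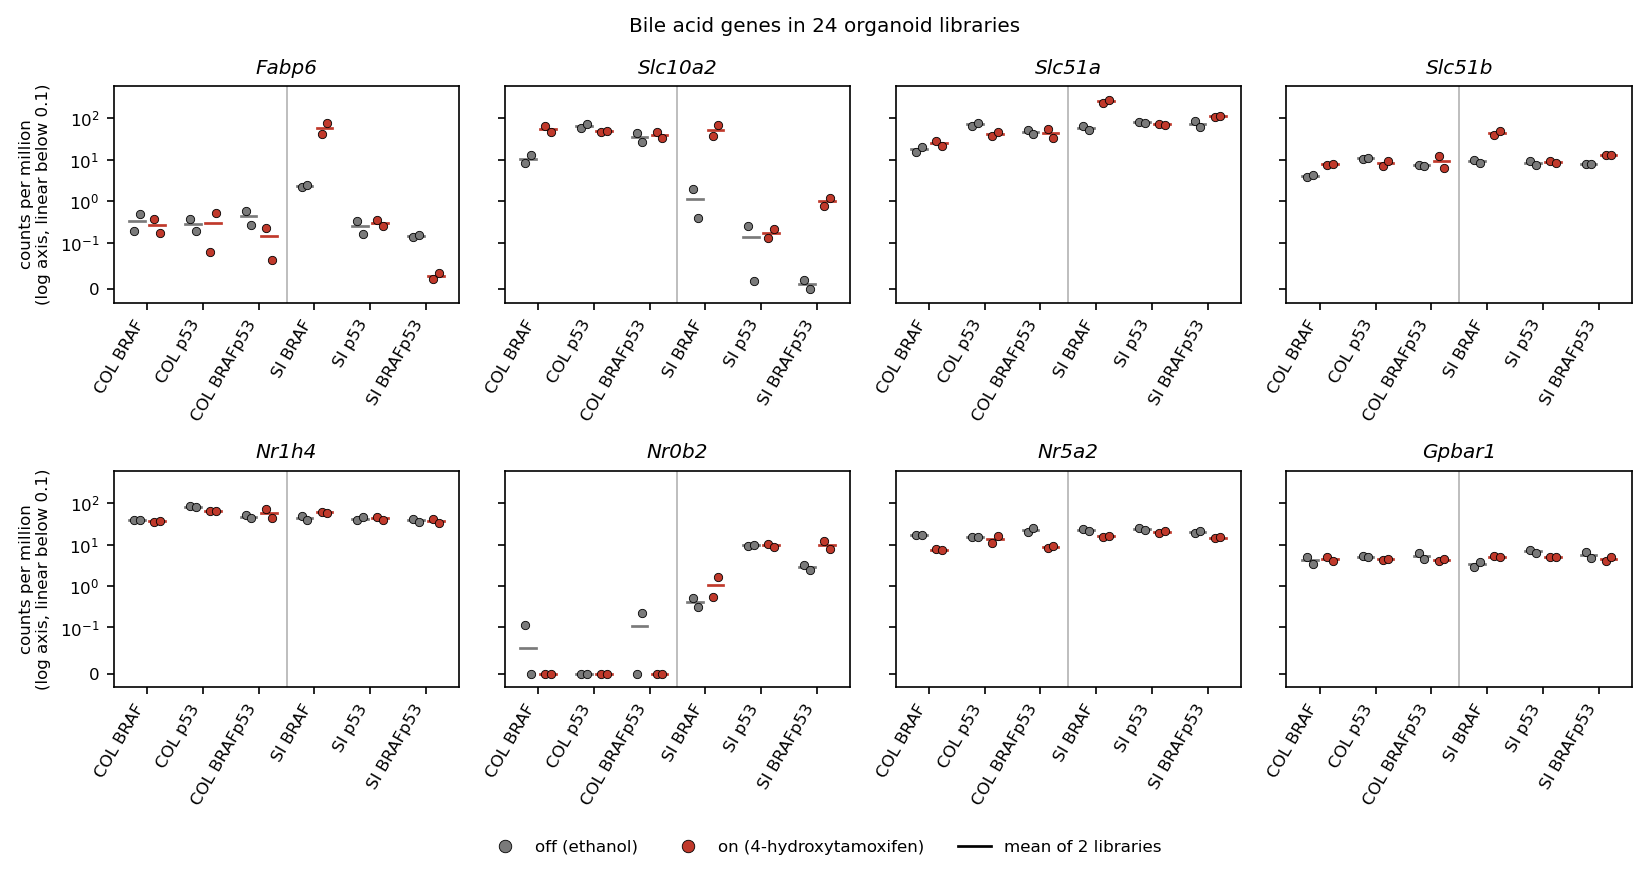
Levels in CPM of the 8 members other than Fgf15 in every library of the 6 cultures, on an axis that is linear below 0.1 and logarithmic above; grey points are off and red points on libraries. Fabp6 is above 3 CPM only in SI BRAF on (41.8 and 77.4 CPM), and Slc10a2 is above 2 CPM in all COL libraries but in SI only in BRAF on (36.6 and 70.6 CPM).

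In SI BRAFp53 the exporter genes and Slc10a2 rose and Fabp6 did not pass. Here 4 members rose and 1 fell of 8 tested, beside 11.5% of all genes tested (6.98% up, 4.53% down). Slc51a was at 85.1 and 61.1 CPM in off and at 108 and 113 CPM in on libraries (log2 fold change 0.56, SE 0.15, edgeR adjusted p = 0.0278), while Pcyt1a was at 57.1 to 69.7 and 102 to 109 CPM. Slc51b was at 8.03 and 7.88 CPM in off and at 12.8 and 12.9 CPM in on libraries (log2 fold change 0.66, SE 0.17, edgeR adjusted p = 0.0262). Slc10a2 went from 1 and 0 counts in off to 38 and 72 counts in on libraries (0.782 and 1.22 CPM), at least 17.2-fold higher against a floor of 3 counts per library (edgeR adjusted p = 0.00894). Fabp6 was at 0.137 and 0.155 CPM in off and at 0.0206 and 0.0340 CPM in on libraries, which is at most 3 counts per on library, and had an edgeR adjusted p of 0.117 (0.0259 without a filter on low counts).

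Most of these SI BRAFp53 calls were lost when 1 library of the culture was left out. Such a fit leaves 1 library in a group, and how many of all genes keep their call there was not compared. For Slc51a the edgeR adjusted p was 0.251 without off replicate 2 and 0.0696 and 0.16 without on replicates 1 and 2. For Slc51b it was between 0.086 and 0.135 without any of the 4. For Slc10a2 it was 0.0522 without on replicate 2 and 0.0555 and 0.0771 without off replicates 1 and 2, and 0.176 by limma-voom on all libraries. The 14 enterocyte genes summed to 14800 to 16900 CPM in off and 22200 to 24000 CPM in on libraries of this culture, with 7 higher and 2 lower.

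The difference between the SI genotypes was tested directly. Of 8 members, 3 had a lower response in BRAFp53 than in BRAF and 0 a higher one, where 8.2% of all genes passed (1.93% up, 6.28% down). The log2 differences were -1.57 (SE 0.21) for Slc51a (edgeR adjusted p = 0.000726), -1.58 (SE 0.24) for Slc51b (0.00173) and -6.95 for Fabp6 (0.000615). The value for Fabp6 depends on the prior count, because its SI BRAFp53 on libraries held at most 3 counts, and it was not called by limma-voom (adjusted p = 0.0582). Without SI BRAF on replicate 1 the same 3 members passed. Slc10a2 did not differ beyond its error (log2 difference 0.82, SE 2.0, edgeR adjusted p = 0.867), with SI BRAFp53 off libraries at 1 and 0 counts. Of the 14 enterocyte genes, 13 had a lower response in BRAFp53 as well, and 13 without SI BRAF on replicate 1.

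In SI p53 organoids the carriers differed little between states. Slc51a was at 82.0 and 77.5 CPM in off and 72.8 and 70.1 CPM in on libraries, and Slc51b at 9.38 and 7.43 against 9.31 and 8.16 CPM. Fabp6 (0.163 to 0.357 CPM) and Slc10a2 (at most 0.257 CPM) stayed low in all 4 libraries. None of the 8 members passed edgeR (0 with an unadjusted p under 0.05, and 0 called by DESeq2 or limma-voom). Of all genes tested, 0% passed edgeR (873 had an unadjusted p under 0.05), while DESeq2 called 65 and limma-voom 1.

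In colonic organoids carriers passed the test in BRAF and in neither of the other genotypes. Of 7 members tested, 2 rose and 1 fell in COL BRAF, beside 19.9% of all genes (10.3% up, 9.61% down); Nr0b2 was too low to be tested. Slc10a2 was at 8.45 and 12.9 CPM in off and at 66.0 and 46.2 CPM in on libraries, and rose by 2.39 on the log2 scale (SE 0.29, edgeR adjusted p = 0.000203). Slc51b was at 3.77 and 4.22 CPM in off and at 7.38 and 8.01 CPM in on libraries, and rose by 0.94 (SE 0.28, edgeR adjusted p = 0.0324). For both genes, on and off libraries did not overlap. Of the 14 enterocyte genes, 5 rose and 4 fell there, and their sum was 2580 and 2690 CPM in off against 3670 and 4170 CPM in on libraries. The call on Slc51b was lost without any 1 of the 4 libraries of the culture (edgeR adjusted p 0.0908 to 0.166) and by limma-voom (0.0662). Slc51a, at 15.6 and 19.8 against 28.2 and 21.2 CPM, did not pass (log2 fold change 0.48, edgeR adjusted p = 0.192), but did without a filter on low counts (0.0274). Fabp6 remained at 0.172 to 0.483 CPM.

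The on level of Slc10a2 in COL BRAF reached the range at which the other colonic cultures stood in both states. In COL p53 it was at 56.8 and 73.6 CPM in off and at 45.6 and 50.5 CPM in on libraries. In COL BRAFp53 it was at 44.3 and 27.1 CPM in off and at 46.2 and 33.8 CPM in on libraries, with the states overlapping. Neither passed the test. The direct comparison of COL BRAFp53 with COL BRAF gave a log2 difference of -2.22 for Slc10a2 (SE 0.39, edgeR adjusted p = 0.0404), as the 1 member of 7 that passed where 0.907% of all genes did (0.532% up, 0.374% down). This call was lost without COL BRAF on replicate 1 (edgeR adjusted p = 0.102) or 2 (0.0805), COL BRAF off replicate 1 (0.151), COL BRAFp53 on replicate 2 (0.103) or COL BRAFp53 off replicate 2 (0.0512), and with the replicate number as a block (0.065).

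In COL BRAFp53 the exporter genes did not pass: Slc51a was at 51.4 and 42.3 against 55.4 and 32.9 CPM, and Slc51b at 7.47 and 7.15 against 12.5 and 6.44 CPM. For both genes the on replicates lay on either side of the off libraries. In that comparison 1 member fell and 0 rose of 7 tested, beside 17.7% of all genes (9.95% up, 7.76% down). Of the 14 enterocyte genes, 3 rose and 6 fell there. In COL p53, Slc51a was at 65.4 and 76.4 CPM in off and at 37.9 and 45.8 CPM in on libraries, without overlap, but did not pass over all genes (log2 fold change -0.79, edgeR adjusted p = 0.296). Without a filter on low counts it did (adjusted p = 7.5e-05). None of the 7 members passed edgeR in COL p53 (1 had an unadjusted p under 0.05) and 0 passed DESeq2 or limma-voom, beside 0.142% of all genes called by edgeR (0.0316% up, 0.111% down).

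The response of BRAF organoids to induction differed between the tissues for all 4 carriers. Nr0b2 is left out of the comparisons between tissues, since it had almost no counts in COL. Of the other 7 members, 4 had a lower response in COL than in SI and 0 a higher one, where 10.7% of all genes passed (3.31% up, 7.4% down). The log2 differences were -4.93 for Fabp6 (SE 0.87, edgeR adjusted p = 0.00109), -3.20 for Slc10a2 (SE 0.66, 0.00363), -1.69 for Slc51a (SE 0.30, 0.00128) and -1.33 for Slc51b (SE 0.33, 0.0138). Without SI BRAF on replicate 1 the same 4 passed, with differences of -5.31, -3.60, -1.79 and -1.48. The call on Slc51b was lost without COL BRAF on replicate 1 (edgeR adjusted p = 0.0516), COL BRAF off replicate 2 (0.0502), SI BRAF on replicate 2 (0.0614) or SI BRAF off replicate 2 (0.0746). In COL itself Fabp6 and Slc51a did not pass. Of the 14 enterocyte genes, 12 had a lower response in COL as well, and 11 without SI BRAF on replicate 1.

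Between the tissues in BRAFp53, 2 of 7 members responded lower in COL and 0 higher, where 3.52% of all genes passed (1.39% up, 2.13% down). Of the 14 enterocyte genes, 6 had a lower response in COL as well and 1 a higher one. The members were Slc10a2 (log2 difference -6.27, edgeR adjusted p = 0.0299), whose SI off libraries held 1 and 0 counts so that the value depends on the prior count, and Nr5a2 (-0.93, SE 0.24, 0.0365). Either call was lost without COL BRAFp53 on replicate 2, SI BRAFp53 on replicate 2 or either SI BRAFp53 off replicate, with edgeR adjusted p between 0.0554 and 0.164. That of Slc10a2 was also lost without COL BRAFp53 off replicate 1 (0.0552), by limma-voom (0.212) and with the replicate number as a block (0.08). That of Nr5a2 was also lost without COL BRAFp53 on replicate 1 (0.152) or off replicate 2 (0.155), SI BRAFp53 on replicate 1 (0.0578), COL BRAF on or off replicate 2, either COL p53 off replicate, SI BRAF on replicate 2 or SI p53 on replicate 2 (0.0502 to 0.0607), without a filter on low counts (0.0531) and with the block (0.0669).

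**Figure D4:**
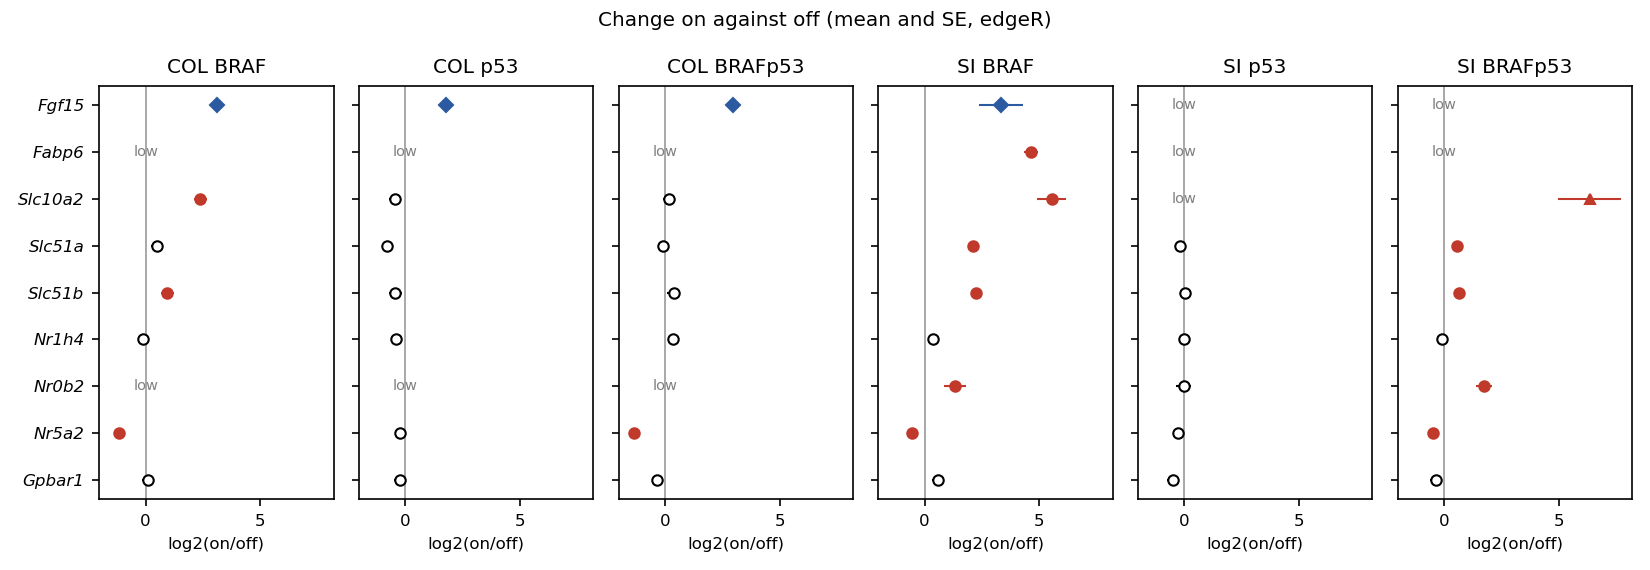
Fitted log2 (on/off) of each member in the 6 arms, with bars of 1 SE; filled red circles passed edgeR at an adjusted p under 0.05, open circles did not, blue diamonds show Fgf15, which was not tested, triangles have off libraries at or under 3 counts, and "low" marks genes not tested or at 50 or fewer counts in every library. All 4 carriers passed in SI BRAF (2.13 to 5.54), the triangle of Slc10a2 in SI BRAFp53 depends on the prior count, and Nr5a2 is below 0 in all 4 arms with BRAFV600E (-0.48 to -1.37). Nr5a2 is also below 0, without passing, in COL p53 (-0.21) and SI p53 (-0.29).

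Among the regulators, the receptor genes passed in no arm, while Nr0b2 rose in SI and Nr5a2 fell in both tissues. Nr1h4 (chr10:89454234-89533585), which encodes FXR, was at 32.9 to 83.2 CPM over all 24 libraries with no call by edgeR in any arm. In SI BRAF it was at 49.9 and 39.0 CPM in off and at 60.1 and 58.7 CPM in on libraries (log2 fold change 0.38), which DESeq2 called (0.41, adjusted p = 0.0346) and edgeR did not (0.37, adjusted p = 0.178 without SI BRAF on replicate 1). In COL BRAFp53 it was at 50.4 and 42.5 CPM in off and at 73.4 and 43.0 CPM in on libraries (log2 fold change 0.33, edgeR adjusted p = 0.28), and passed without on replicate 2 (0.68, edgeR adjusted p = 0.00827), whereas without on replicate 1 it was -0.10. Gpbar1 (chr1:74278550-74279624) was low, at 2.89 to 7.33 CPM.

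Nr0b2 (chr4:133553376-133556536), the gene of the corepressor SHP and itself a target of FXR, was nearly absent from the colon, with 0 to 16 counts per library. In SI BRAFp53 it was at 3.26 and 2.48 CPM in off and at 12.4 and 7.58 CPM in on libraries, and rose by 1.76 on the log2 scale (SE 0.36, edgeR adjusted p = 0.00593). That call was lost without on replicate 1 (0.054) or off replicate 2 (0.0646). In SI BRAF it was at 0.509 and 0.314 CPM in off and at 0.557 and 1.61 CPM in on libraries. It passed there (log2 fold change 1.33, SE 0.47, edgeR adjusted p = 0.0446), but rested on on replicate 2, without which the log2 fold change was 0.43 (edgeR adjusted p = 0.584). Its call was also lost without either off replicate (0.0634 and 0.256), without any 1 library of SI p53 (0.0513 to 0.0544) or without SI BRAFp53 off replicate 1 (0.0514), and by limma-voom (0.29), with the arm alone (0.18) and with the replicate block (0.0612). Without SI BRAF on replicate 1 it was 1.95 (edgeR adjusted p = 0.00237). In SI p53 organoids Nr0b2 was at 9.12 and 10 CPM in off and at 10.4 and 8.56 CPM in on libraries, above every SI BRAF library.

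Nr5a2 (chr1:136842571-136960448) fell in the 4 arms that carried BRAFV600E, with a call near the threshold in SI BRAFp53. LRH-1 is a transcription factor of crypt cells and of bile acid control, and binds the promoter of Nr0b2 in the liver. In COL BRAF it was at 16.6 and 16.5 CPM in off and at 7.71 and 7.38 CPM in on libraries, and fell by 1.14 on the log2 scale (SE 0.20, edgeR adjusted p = 0.00184). In COL BRAFp53 it was at 20.1 and 24.6 CPM in off and at 8.02 and 9.34 CPM in on libraries, and fell by 1.37 (SE 0.20, edgeR adjusted p = 0.000756).

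In SI, Nr5a2 fell by less in BRAFp53 than in COL by the test of the difference above, and in BRAF that difference did not pass (log2 difference -0.63, edgeR adjusted p = 0.103), although it did by DESeq2 (adjusted p = 0.0473). In SI BRAF it was at 23.8 and 21.2 CPM in off and at 15.5 and 16.3 CPM in on libraries, and fell by 0.55 on the log2 scale (SE 0.14, edgeR adjusted p = 0.00972); the call was lost without off replicate 1 (0.0712), while without SI BRAF on replicate 1 it was -0.51 (0.0451). In SI BRAFp53 it was at 19.1 and 20.9 CPM in off and at 14 and 15.5 CPM in on libraries, and fell by 0.48 (SE 0.14, edgeR adjusted p = 0.0442). This last call was near the threshold and was lost without any library of its own culture (edgeR adjusted p 0.0991 to 0.267), of SI p53 (0.0576 to 0.0683) or of SI BRAF off (0.0577 and 0.0587). It was also lost with RLE scaling (0.0518), without a filter (0.09), with the arm alone (0.0731) and with the replicate block (0.0789). In the p53 arms Nr5a2 did not pass, at 15.4 and 14.8 against 10.6 and 16.0 CPM in COL and 25.4 and 22.6 against 19.0 and 20.7 CPM in SI. Its log2 fold change was below 0 there too, at -0.21 in COL p53 and -0.29 in SI p53, where on and off did not overlap.

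The wider pathway was read from lists that hold none of the 9 members. Their counts stand beside shares of all genes of 10.3% up and 9.61% down in COL BRAF, 9.95% and 7.76% in COL BRAFp53, 17.5% and 14.2% in SI BRAF, and 6.98% and 4.53% in SI BRAFp53, and several are near these. Of the FGF15 receptor complex and its regulators, 1 gene rose and 2 fell of 6 tested in COL BRAF, 0 rose and 3 fell in COL BRAFp53, 2 rose and 2 fell of 5 in SI BRAF, and 1 rose and 1 fell in SI BRAFp53. Fgfr4, the FGF15 receptor of the liver, was at 14.4 and 21.8 CPM in COL BRAF off and at 28.3 and 37.5 CPM in on libraries (log2 fold change 0.86, edgeR adjusted p = 0.0348). It rose by 1.38 in SI BRAF (edgeR adjusted p = 0.00656) and by 1.80 in SI BRAFp53 (0.00392). Klb, the gene of its coreceptor β-Klotho, was at most 1.41 CPM in COL and 0.250 CPM in SI libraries. Fgfr2, a receptor for other FGFs, fell by 1.57 in COL BRAF, by 2.12 in COL BRAFp53 and by 1.19 in SI BRAF. In SI BRAFp53 it did not pass (log2 fold change 0.33, edgeR adjusted p = 0.287), and its response there was higher than in SI BRAF (log2 difference 1.52, edgeR adjusted p = 0.00315). Fgfr3 fell in all 4 arms with BRAFV600E (-0.95 to -1.67). Malrd1, whose product raises FGF15 output in the gut, rose by 1.02 in SI BRAF (edgeR adjusted p = 0.00044) and fell by 0.88 in COL BRAFp53 (0.00578).

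Among other carriers of bile acids and sterols in SI, 7 rose and 1 fell of 10 tested in BRAF, and 4 rose and 1 fell in BRAFp53, against 2 rising and 1 falling of 12 in COL BRAF and 2 and 2 in COL BRAFp53. By the test of the difference, 4 of 12 had a lower response in COL than in SI and 0 a higher one in BRAF, beside 7.4% of all genes lower and 3.31% higher. In BRAFp53 it was also 4 and 0 of 12, beside 2.13% and 1.39%. Abcc2, an apical exporter of conjugates, rose by 1.65 in SI BRAF and by 1.02 in SI BRAFp53. Abcc3, a basolateral exporter of conjugates and bile acids, rose by 1.05 in COL BRAF (160 and 185 CPM in off, 354 and 360 CPM in on libraries) and by 1.25 in COL BRAFp53, and by 1.03 in SI BRAF. Slco2b1, an uptake carrier, fell by 0.98 in SI BRAF and by 1.17 in SI BRAFp53, and by 2.56 in COL BRAF and 3.17 in COL BRAFp53.

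Among 15 receptors and partners of bile acid signalling, 14 were tested: 0 rose and 3 fell in COL BRAF, 0 and 2 in COL BRAFp53, 5 and 3 in SI BRAF, and 1 and 3 in SI BRAFp53. Rxra, the partner of FXR on DNA, rose by 0.43 in SI BRAF (edgeR adjusted p = 0.0216) and passed in no other arm. Nr1h3, the oxysterol receptor LXRα, fell by 1.42 in COL BRAF and by 1.06 in COL BRAFp53. Of bile acid synthesis and conjugation genes, 4 rose and 1 fell of 10 tested in SI BRAF, led by Cyp3a13 (log2 fold change 3.46) and Acox2 (2.24), a peroxisomal oxidase that shortens the bile acid side chain. In SI BRAFp53, 2 rose and 3 fell. In COL BRAF, 1 rose and 2 fell of 9, and in COL BRAFp53, 0 rose and 2 fell.

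Of the factors that set position along the gut most did not pass, with 4 of 15 rising and 0 falling in SI BRAF, 2 and 0 in SI BRAFp53, 2 and 3 in COL BRAF, and 0 and 2 in COL BRAFp53. Gata4, which represses ileal genes in the proximal gut, was at 80.1 and 83.0 CPM in SI BRAF off and at 82.6 and 91.5 CPM in on libraries and did not pass there. Cdx2, an intestinal identity factor, passed in no arm, and Gata6 passed only in COL BRAFp53, where it fell by 0.82 (edgeR adjusted p = 0.00219). Hnf4a rose in SI BRAF (log2 fold change 0.26, edgeR adjusted p = 0.0409), a call lost without SI BRAF on replicate 1 (0.079). Of the other 8 distal genes, 4 rose and 1 fell in SI BRAF, among them Cubn, the intrinsic factor receptor of the ileum (log2 fold change 3.44, and -0.96 in COL BRAF, where it fell), while 6 of 10 proximal genes rose and 0 fell. Without SI BRAF on replicate 1, 3 distal genes rose and 1 fell, and 4 proximal genes rose and 1 fell. In COL BRAF, 3 distal genes rose and 4 fell. In the p53 arms no gene of these lists passed, other than 3 enterocyte genes that fell in COL p53. Of 12 feedback genes of the ERK pathway, through which BRAF signals, 9 rose in COL BRAF, 8 in COL BRAFp53, 4 in SI BRAF and 9 in SI BRAFp53, and 0 fell.

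Without SI BRAF on replicate 1, 15.4% of all genes rose and 14.3% fell in SI BRAF. Of the receptors and partners 5 rose and 2 fell, of the FGF15 receptor complex 2 and 2, of the other carriers 7 and 1 of 12 tested, of the synthesis genes 4 and 0, of the position factors 3 and 1, and of the ERK feedback genes 3 and 0. Fgfr4 was then at a log2 fold change of 1.66, Malrd1 at 1.27, Rxra at 0.59, Abcc2 at 1.95, Cyp3a13 at 3.60, Acox2 at 2.38 and Cubn at 3.46. Abcc3 was at 1.25 and Anpep at 3.41, below the values of Fabp6 and Slc10a2 without that library. Fgfr2 was at -1.24, Fgfr3 at -1.02 and Slco2b1 at -1.01. All 12 of these genes passed in both fits. The difference of Fgfr2 between SI BRAFp53 and SI BRAF was 1.58 (edgeR adjusted p = 0.00427).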

How the data were processed

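The deposited files were 2 tables of raw counts per gene, 1 per tissue. According to the study's methods and the submitters' processing notes, the authors trimmed reads with Trimmomatic 0.36 and aligned them with STAR 2.5.2b; the methods name mm10 and the notes both mm9 and mm10. Neither the annotation release nor strand use is given in the sources used here. Gene names, loci and exon overlaps came from GENCODE M21 (45143 of 45706 identifiers matched).

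Counts were tested with edgeR 4.0.16 (R 4.3.3): TMM scaling, filterByExpr, quasi-likelihood F-test, 1 mean per group, all 12 libraries of a tissue in each fit (24 for differences between tissues), and Benjamini-Hochberg adjustment over all genes tested at a threshold of 0.05. The SE is the log2 fold change divided by the square root of F. The code of the fits was also run on simulated counts, and the outcome of that run is not used here. Of the 9 members, 8 passed the filter in COL and 9 in SI, where Fgf15 passed through its BRAF libraries. Alternatives were RLE scaling, no filter, a minimum of 10 counts per library, limma-voom (limma 3.58.1), DESeq2 1.42.0, the arm alone, a replicate block and leaving out each library. Counting error limits low values, and PCR duplicates are not independent molecules.

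The members, lists and motifs were chosen with earlier results of these data known. Outside the members, the text names Gata4, Gata6, Cdx2, Hnf4a, Rxra, Fgfr4 and Klb, then up to 3 genes per direction, list and comparison with the largest log2 fold change among those that passed with an average log2 CPM of at least 1, genes with exons opposite a member, and the 5 genes most like Fgf15 per tissue. Trp53 was named as a check of the labels, and Xist, Ddx3y and Osr2 after their values were seen. The values of lists and named genes without SI BRAF on replicate 1 were added after the data were seen. The planned test of off organoids between tissues is not used for Fgf15, Slc10a2 and Nr0b2, nor that of responses between tissues for Nr0b2, as they passed its filter through 1 tissue only. Nr1h4 and Slc51a values that did not pass were picked for their size after they were seen.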

Additional observations from a re-analysis of the deposited data

Results flagged for a closer look

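The responses of 10 member and contrast pairs differed between genotypes or tissues when the difference itself was tested in edgeR, with differences below on the log2 scale. Between BRAFp53 and BRAF the difference was -2.22 for Slc10a2 in COL. In SI it was -6.95 for Fabp6, -1.57 for Slc51a and -1.58 for Slc51b. These comparisons set 1 donor culture against another. Between COL and SI in the BRAF genotype it was -4.93 for Fabp6, -1.69 for Slc51a, -3.20 for Slc10a2 and -1.33 for Slc51b. In the BRAFp53 genotype it was -0.93 for Nr5a2 and -6.27 for Slc10a2. There the COL and SI cultures also differed in Ddx3y, so tissue cannot be told apart from donor and sex. All 10 are negative: the BRAFp53 response lay below the BRAF response, or the COL response below the SI response. Of all genes, more also passed with a negative than a positive difference in SI (6.28% against 1.93%). The same held between tissues in BRAF (7.4% against 3.31%) and in BRAFp53 (2.13% against 1.39%). It did not hold for BRAFp53 against BRAF in COL (0.374% against 0.532%). Several of the 10 pairs share the SI BRAF or SI BRAFp53 libraries, so they are not independent of each other.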

How the results depend on the processing

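Of the 28 fold changes or differences called for members, including 3 between off organoids that the report gives without a test, 9 lost their call under at least 1 of the alternatives that use all libraries and 15 when 1 library or culture was left out; none of the 28 changed sign. Of 37 values followed, 1 reversed: Nr1h4 in COL BRAFp53, not called, was -0.10 on the log2 scale without on replicate 1 and 0.68 without on replicate 2. The number of members called was 1 in COL p53 without a filter on low counts. It was 2 for the BRAF response between tissues, 1 for the BRAFp53 response between tissues and 0 for the off organoids when at least 10 counts were required in every library, which by its construction removes members at low levels. For the BRAFp53 response between tissues it was 1 by limma-voom (Nr5a2) and 1 with the replicate block, where the 1 was Nr0b2, which passed the filter only through SI and is not read as a call, so that neither Slc10a2 nor Nr5a2 was called, and the block gave 0 for BRAFp53 against BRAF in COL. Replicate numbers did not pair the libraries (the correlation of same-numbered deviations was -0.039 to 0.057 over the 6 arms), and the cause of these losses was not tested. Leaving out 1 library gave 1 to 2 members in COL BRAFp53, 0 to 6 in SI BRAFp53, 0 to 1 for BRAFp53 against BRAF in COL, 3 to 5 for the BRAF response and 0 to 2 for the BRAFp53 response between tissues, and leaving out 1 culture 1 to 3 in the off organoids. How many of all genes keep their call when 1 library is left out was not compared. Over all genes, the number called in COL p53 was 27, against 569 without a filter, 324 by DESeq2, 14 with the arm alone and 15 with the block. In SI p53 it was 0, against 155 without a filter and 17 with the arm alone. BRAFp53 against BRAF gave 172 in COL, against 1312 without a filter, 391 with at least 10 counts, 1364 by DESeq2 and 17 with the block, and in SI 1383, against 2108 by DESeq2. The BRAFp53 response between tissues gave 693, against 1548 without a filter and 1580 by DESeq2, and the off organoids 5270, against 8234 with single libraries as samples. With 2 libraries per group and 1 culture per genotype, changes shared by animals cannot be separated from those of a culture. SI levels of Fgf15 outside BRAF were at most 11 counts and cannot show a fall. The on libraries among them held at most 8 counts, so a rise to the 266 and 267 counts of SI BRAF on was absent.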
